A study of Homo sapiens with 25 samples.

Results

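The regions described here carried the histone mark H3K27me3 in pharyngeal foregut endoderm (hPFE) and had no peak of it in the human embryonic stem cells (hESC) and definitive endoderm (hDE) that came before. The peaks of all 7 H3K27me3 lists were pooled and overlapping peaks were merged. A merged region of 500 bp or more on chromosomes 1 to 22 or X was kept when it overlapped a peak in both hPFE lists and none in the 4 hESC and hDE lists. This rule found 766 of 17927 merged regions of that width. The single list of anterior foregut endoderm (hAFE), the stage between hDE and hPFE, took part in the merging but not in the choice.

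Every stage came from 1 established line, H1, taken undifferentiated (hESC) or after directed differentiation to hDE, hAFE and hPFE, so other lines were not covered. Chromatin immunoprecipitation with sequencing was done for H3K27me3, H3K27ac and H3K4me2, with 2 libraries per stage and mark except 1 for hAFE H3K27me3 and 1 each for hAFE and hPFE H3K4me2. The hESC H3K27ac and H3K27me3 libraries were re-analysed from an earlier deposit, so batch and stage cannot be told apart in any comparison with hESC for these marks. File names of replicate 1 of hESC, hDE and hPFE H3K27me3 hold the word millipore, whose meaning is not given. H3K27me3 lists held 23457 to 76441 peaks over 15.8 to 31.9 Mb, and the reads behind them were not used here, so depth is unknown and a missing peak may be a missed one. As a check of the labels, H3K27ac lay within 1 kb of an end of 3 of 9 pharyngeal genes in both hPFE libraries (NKX2-6, ISL1 and FOXA2, with none at PAX9, PAX1, TBX1 or HOXA3 among others). The same held for 6 of 6 definitive endoderm genes in hDE, and for none of the 6 in hPFE. Of 6 stem cell genes, 5 had it in hESC and NANOG and SOX2 had it in hPFE. SOX2 was also among 3 anterior foregut genes checked, with FOXA2 and ISL1, and all 3 had it in hAFE and in hPFE. Of 2 genes each for neural, mesenchymal, hepatic and blood cells, none had H3K27ac in both hPFE libraries.

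H3K27me3 is placed by Polycomb repressive complex 2 and marks genes held silent, whereas H3K27ac is an acetyl group on the same lysine and marks active promoters and enhancers. H3K4me2 is found at promoters and enhancers, both in use and poised. In stem cells many promoters of developmental regulators carry H3K27me3 together with H3K4 methylation, and mammalian Polycomb complexes are typically found at CpG-rich DNA. The DNA of 4 of the best-ranked regions, which lay on a promoter and carried H3K27ac earlier, is shown here as an example of such promoters, which are a minority of the new regions. The 250 bases before the RefSeq gene start (GRCh38.p14, read along the gene's strand) are printed with every CpG in capitals. They are chr15:39920267-39920516 of GPR176 on the minus strand, chr6:127519336-127519585 of MTCL3 on the minus strand, chr5:7395888-7396137 of ADCY2 on the plus strand and chr4:153789084-153789333 of SFRP2 on the minus strand.
GPR176: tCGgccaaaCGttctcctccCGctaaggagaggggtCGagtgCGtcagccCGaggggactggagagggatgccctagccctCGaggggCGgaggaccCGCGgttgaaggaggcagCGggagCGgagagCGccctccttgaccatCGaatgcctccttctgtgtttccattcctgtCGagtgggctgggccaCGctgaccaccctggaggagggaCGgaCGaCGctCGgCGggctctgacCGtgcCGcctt
MTCL3: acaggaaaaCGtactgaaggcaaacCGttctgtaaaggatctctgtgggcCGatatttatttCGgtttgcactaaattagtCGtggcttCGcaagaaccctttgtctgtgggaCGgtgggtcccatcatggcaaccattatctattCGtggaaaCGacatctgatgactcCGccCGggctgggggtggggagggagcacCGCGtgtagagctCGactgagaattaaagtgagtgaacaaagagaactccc
ADCY2: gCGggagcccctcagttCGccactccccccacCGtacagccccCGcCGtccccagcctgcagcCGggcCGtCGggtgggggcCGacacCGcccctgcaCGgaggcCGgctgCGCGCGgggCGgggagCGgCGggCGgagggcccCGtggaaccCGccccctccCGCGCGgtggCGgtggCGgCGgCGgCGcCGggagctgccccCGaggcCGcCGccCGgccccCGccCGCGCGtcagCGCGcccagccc
SFRP2: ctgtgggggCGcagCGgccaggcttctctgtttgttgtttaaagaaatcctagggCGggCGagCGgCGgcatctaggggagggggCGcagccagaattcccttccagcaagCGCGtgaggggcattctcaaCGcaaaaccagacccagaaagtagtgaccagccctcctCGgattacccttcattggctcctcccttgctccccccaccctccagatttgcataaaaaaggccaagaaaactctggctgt
These windows hold 23 CpGs at GPR176, 14 at MTCL3, 40 at ADCY2 and 11 at SFRP2. New regions covered all 250 bases at GPR176, MTCL3 and SFRP2, and 139 of them at ADCY2.

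The new regions were narrow. Their median width was 722 bp, against 2530 bp for the 4116 regions with a peak in all 6 hESC, hDE and hPFE lists, and 1030 bp for all merged regions. The widest spanned 9757 bp and together they covered 0.705 Mb. The authors' fold enrichment of the strongest peak in a region had a median of 3.33 (1.83 to 9.49) in hPFE replicate 1, where the whole list had a median of 2.85, and 3.55 (2.00 to 12.4) in hPFE replicate 2, where the list had 3.02. The list medians are over every peak and the region medians over the strongest peak of each region, so they are not alike. In 736 regions (96.1%) the peaks of the 2 hPFE libraries overlapped each other. These values chose the regions, so they are a description and no test was made. In bulk libraries the share of cells with a mark and its strength per cell cannot be told apart. The 3 narrowest regions kept were 500, 500 and 501 bp wide, the 3 widest left out were each 499 bp wide, and 2438 regions met every condition but width. Ranks below order the regions by the mean of their percentiles by the authors' −log10 p in the 2 hPFE lists, with rank 1 the strongest.

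**Figure D1:**
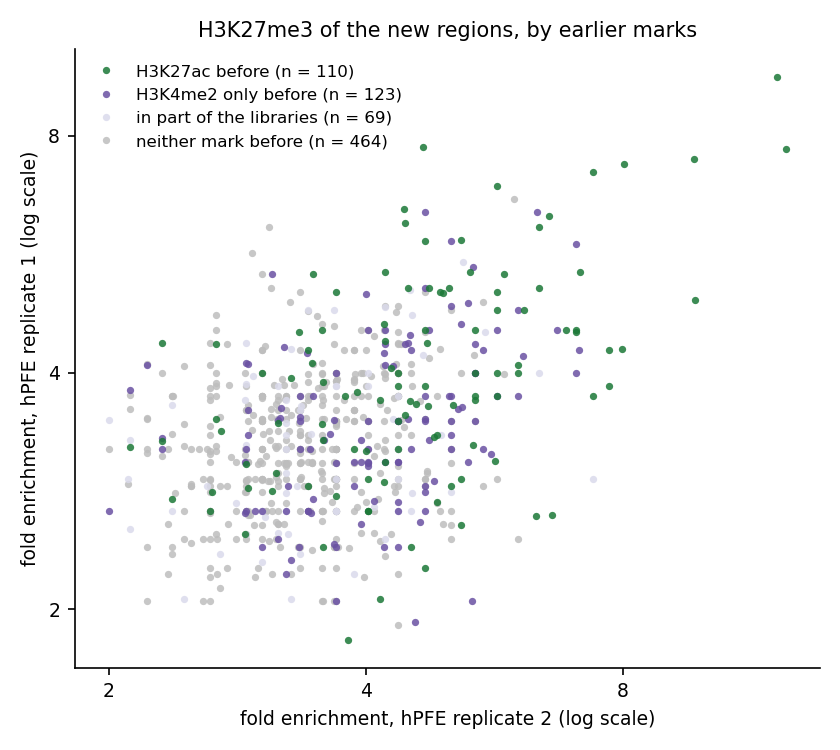
Each point is 1 of the 766 new regions, placed by the authors' fold enrichment of its strongest H3K27me3 peak in hPFE replicate 2 (x axis) and replicate 1 (y axis), both on log scales. Colours give the earlier marks. H3K27ac before (110 regions) means a peak in both libraries of hESC or of hDE. H3K4me2 only (123) means the same for H3K4me2 but not for H3K27ac, which may still have a peak in a single library. A further 69 had marks in part of the libraries without either being so, and 464 had neither mark in any. Points at the upper right are mostly of the first kind.

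Before they carried H3K27me3, 110 of the 766 regions (14.4%, 95% interval 12.0 to 17.0) had H3K27ac in both hESC libraries or both hDE libraries, against 8.20% of all merged regions. At hESC 71 regions (9.27%) had it in both libraries, against 1.53% of all merged regions. At hDE 83 regions (10.8%) had it, against 7.26%. The 44 regions with H3K27ac at both stages made up 5.74%, against 0.597%. The rule left out regions with H3K27me3 at hESC or hDE, while all merged regions include them. H3K27ac sits on the same lysine, so these shares do not compare like with like, and the part due to the choice was not tested. Of the regions marked throughout 4.28% had earlier H3K27ac. The set chosen alike at hESC and hDE, 353 regions absent from both stages but with a peak in only 1 hPFE list, had it in 8.78%. The 353 regions with H3K27me3 in hESC and hPFE but not in hDE had it in 113 cases (32.0%), 111 of them in both hDE libraries. With every region reduced to 500 bp around its midpoint the share was 12.7% of the new regions, 4.52% of all merged regions and 0.705% of those marked throughout. The order against all merged regions depends on how peaks were merged: when peaks up to 500 bp apart were joined, the share was 5.58% of 2079 new regions against 7.77% of all merged regions, and up to 1000 bp apart 4.57% of 2801 against 7.62%.

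**Figure D2:**
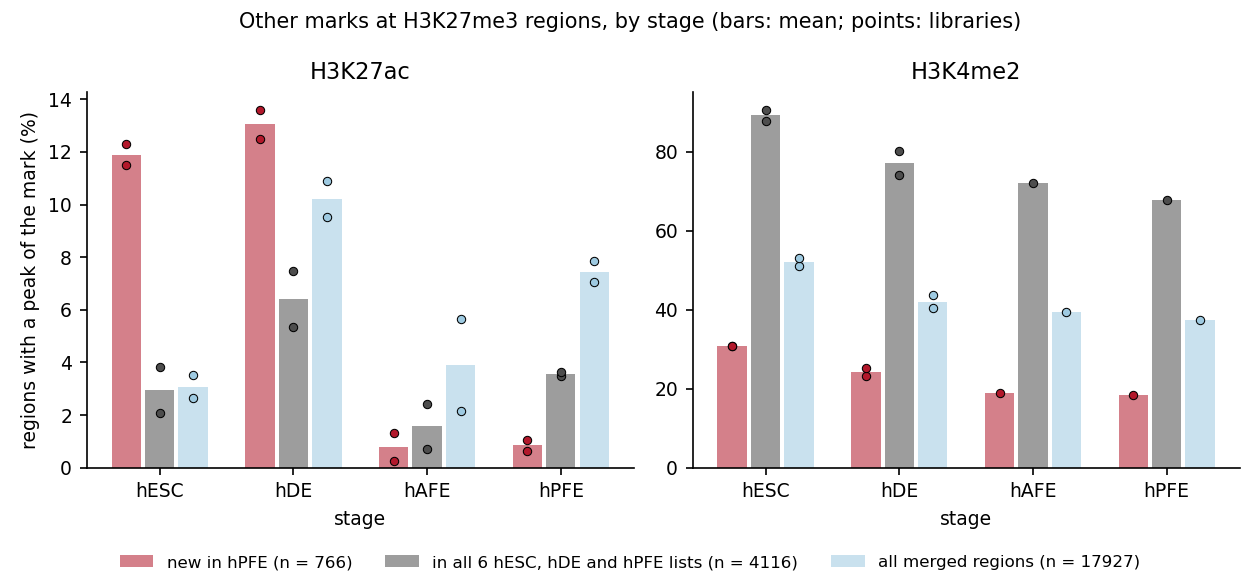
Share of regions (y axis, %) with a peak of H3K27ac (left) or H3K4me2 (right) at each stage (x axis) for the 766 new regions, the 4116 regions in all 6 hESC, hDE and hPFE lists and all 17927 merged regions. Points are libraries and bars their means. H3K27ac of the new regions lies between 11.5 and 13.6% in the hESC and hDE libraries and between 0.261 and 1.31% in the hAFE and hPFE libraries.

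Nearly all of this earlier H3K27ac was absent from the hPFE lists. In both libraries of a stage, 2 new regions had H3K27ac in hAFE (0.261%, against 1.92% of all merged regions) and 2 in hPFE (0.261%, against 3.96%). Of the 83 new regions with H3K27ac in both hDE libraries, 82 (98.8%, 95% interval 93.5 to 100) had no H3K27ac peak in either hPFE library, against 57.8% of all merged regions with hDE H3K27ac. Among regions that also carried H3K27me3 in hPFE the share was closer, at 75.5% of those marked throughout, 81.1% of those in hESC and hPFE but not hDE and 77.3% of those in 1 hPFE list only. The rule asked for H3K27me3, on the same lysine, in both hPFE libraries, and the part due to this choice was not tested. Median widths also differed, at 722 bp for new regions and 2530 bp for those marked throughout. They were 1260 bp in hESC and hPFE but not hDE and 603 bp in 1 hPFE list only. The effect of width on these shares was not tested. Of the 71 new regions with H3K27ac in both hESC libraries, 69 (97.2%) had none in hPFE, against 80.4% of all merged regions with hESC H3K27ac, 87.0% of those marked throughout and 64.7% of those in 1 hPFE list only. Over all H3K27ac regions of the genome the shares were 45.3% for hDE and 30.0% for hESC. At hAFE 75 of the 83 (90.4%) and 67 of the 71 (94.4%) already had none, against 67.8% and 86.9% of all merged regions. The hAFE H3K27ac lists held 24871 and 42100 peaks, while the hPFE lists held 81170 and 111256 and the hDE lists 101186 and 111076. In all, 755 new regions had no H3K27ac peak in either hPFE library, 9 had one in 1 of them and 2 in both.

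Of the last 2, one lay at SOX21, a SOX transcription factor gene, with H3K27me3 folds of 2.85 and 2.91 and H3K27ac folds of 4.89 and 3.28 in the hPFE libraries. The other lay on chromosome 14, 339 kb from PRKD1, with H3K27ac folds of 3.27 and 2.16. Both ranked low, at 697 and 660.

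The regions with the strongest new H3K27me3 were mostly ones that had carried H3K27ac. Among the 20 best ranked, 16 (80.0%) had H3K27ac before and 19 had H3K4me2. The share with H3K27ac was 53.3% at ranks 21 to 50, 28.0% at 51 to 100, 17.0% at 101 to 200, 10.5% at 201 to 400 and 7.10% at 401 to 766. Width went the same way, with medians of 1750 bp at the top and 638 bp at the bottom, and among the 33 regions of 2000 bp or more 14 (42.4%) had H3K27ac before. Wider regions have more room to overlap a peak, and how much of the trend width accounts for was not tested.

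**Figure D3:**
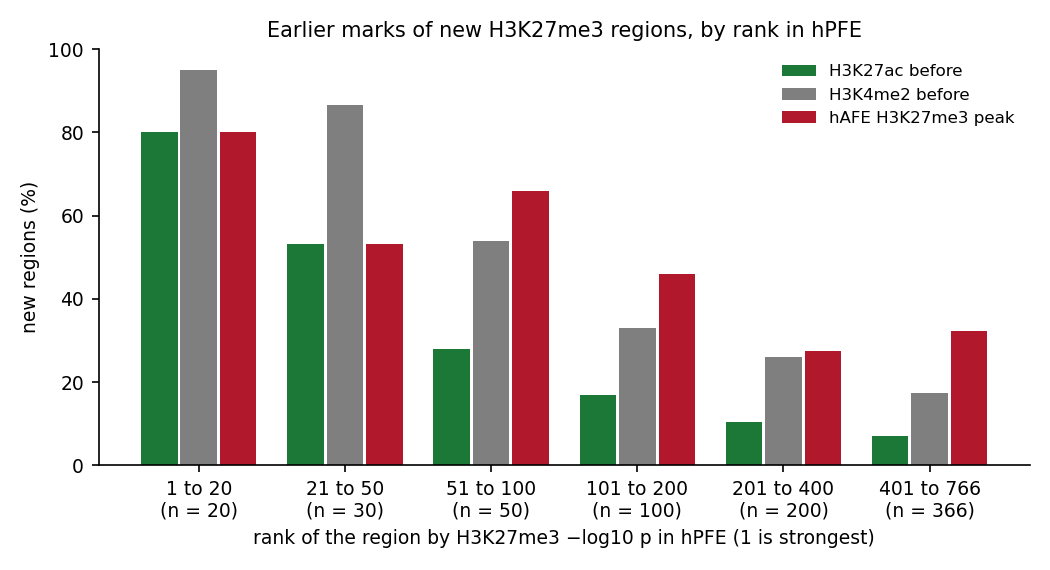
Share of the new regions (y axis, %) with H3K27ac in both hESC or both hDE libraries (green), the same for H3K4me2 (grey) and an hAFE H3K27me3 peak (red), for 6 ranges of rank by H3K27me3 −log10 p in hPFE (x axis, 1 is strongest). H3K27ac covers 80.0% of the first 20 and 7.10% of the last 366.

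The best-ranked region, of 6018 bp (chr18:78980229-78986246), lay at the start of SALL3, a spalt-family zinc-finger transcription factor gene. Its H3K27me3 folds were 9.49 and 12.1 in hPFE and 11.0 in hAFE. Its H3K27ac folds were 4.52 and 4.47 in hESC and 5.21 and 5.77 in hDE, and no hAFE or hPFE library had an H3K27ac peak. H3K4me2 remained, with folds of 3.56 in hAFE and 4.40 in hPFE.

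The second, of 2808 bp, covered the start of GPR176, an orphan G protein-coupled receptor gene whose promoter is printed above. It had H3K27me3 folds of 7.70 and 12.4 in hPFE and 8.45 in hAFE. Its H3K27ac was present in all 4 hESC and hDE libraries, with folds of 5.73 and 6.59 in hESC and 5.98 and 5.23 in hDE, and in no later one. ADD2, which encodes the membrane-skeleton protein beta-adducin, had H3K27ac folds of 7.30 and 4.88 in hESC and 3.65 and 2.67 in hDE, and H3K27me3 folds of 5.45 in hAFE and 7.20 and 7.37 in hPFE. ADCY2, an adenylate cyclase gene, had H3K27ac folds of 3.21 and 6.33 in hESC and 3.5 and 6.07 in hDE, and H3K27me3 folds of 3.29 in hAFE and 4.94 and 9.72 in hPFE. Both repeat the pattern seen at SALL3 and GPR176, with H3K27ac in every early library and none of the later ones. FUT2, a fucosyltransferase gene ranked 30, did so too, with hPFE H3K27me3 folds of 5.07 and 5.70.

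SFRP2, which encodes a secreted WNT antagonist, had earlier H3K27ac at hESC only, with folds of 11.0 and 6.91. Its 4303 bp region had H3K27me3 folds of 4.28 and 7.98 in hPFE and 6.33 in hAFE. MTCL3, THY1 (the surface glycoprotein CD90), UNC13A (a synaptic vesicle priming protein) and DLGAP1 (a postsynaptic scaffold) likewise had H3K27ac in both hESC libraries and in neither hDE library. Of these, THY1 had hESC H3K27ac folds of 7.21 and 6.93 and hPFE H3K27me3 folds of 7.73 and 4.67, and MTCL3 had hESC H3K27ac folds of 4.28 and 2.88 and hPFE H3K27me3 folds of 7.37 and 8.02. SCG3, which encodes a granin of secretory granules, had H3K27ac in both hESC libraries and in hDE replicate 1. Netrin-1 (NTN1), an axon guidance cue, showed the reverse: a 5753 bp region inside the gene had H3K27ac folds of 3.02 and 4.84 in hDE and none in hESC, and hPFE H3K27me3 folds of 6.33 and 6.55. JAKMIP1 also had it at hDE only, with folds of 5.83 and 3.97. Among the 20 best-ranked regions, these 2 were the ones with H3K27ac at hDE and not at hESC.

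Another 4 of the 20 best-ranked regions lacked H3K27ac in both libraries of either stage. CADPS (a dense-core vesicle exocytosis factor) and FXYD1 with FXYD7 (Na,K-ATPase regulators) had it in hESC replicate 2 only. XKR4 had H3K4me2 in all 4 early libraries without H3K27ac. The region inside ESRRG, an orphan nuclear receptor gene, had neither mark in any library of any stage, with hPFE H3K27me3 folds of 6.65 and 5.96. Among the 20, 16 also had an hAFE H3K27me3 peak, and those at MTCL3, near CAMKMT, in TNIK and at LOC107987025 did not. The region near CAMKMT was also the only one of the 20 with H3K27ac in hAFE, with folds of 4.77 and 5.17, and had hPFE H3K27me3 folds of 5.37 and 7.12.

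Several of these regions lie next to H3K27me3 that was there before. The nearest earlier peak was 212 bp from the first ANK2 region, 476 bp from that of SFRP2, 830 bp from that of ADCY2 and 1285 bp from that of SALL3, against 46253 bp at GPR176. When peaks up to 500 bp apart were joined, 29 of the 39 genes named by the rule still had a new region, and ANK2, SFRP2 and ZIC5 were among the 10 that did not. Up to 1000 bp apart 24 did, and SALL3, ADCY2, MTCL3, JAKMIP1 and SFRP1 no longer had one either.

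**Figure D4:**
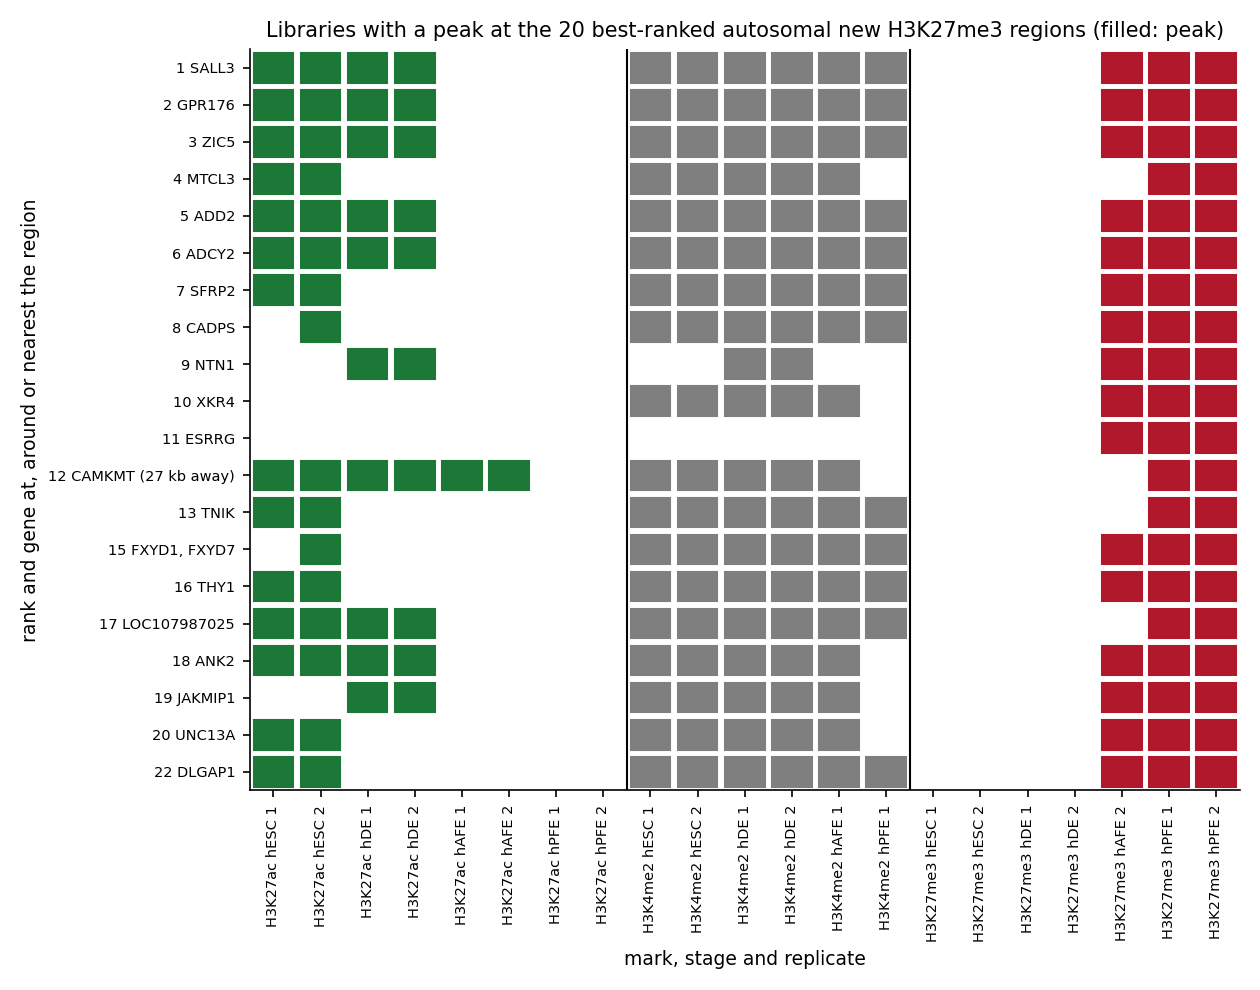
Each row is 1 of the 20 best-ranked new regions on autosomes, named by the gene at, around or nearest it, and each column a library, grouped by mark and ordered by stage. A filled cell is a library with a peak in the region. Green H3K27ac cells fill the hESC and hDE columns of most rows and, in hAFE and hPFE, only the hAFE cells of the region near CAMKMT, and red H3K27me3 cells fill both hPFE columns by the rule.

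ZIC5 encodes a zinc-finger transcription factor of stem cells and early patterning. A 5242 bp region inside the gene, ranked 3, had H3K27ac folds of 6.07 and 5.96 in hESC and 9.76 and 14.1 in hDE, none later, and H3K27me3 folds of 11.1 in hAFE and 7.47 and 9.69 in hPFE. Its H3K4me2 was present in all 6 libraries of that mark. A second region at the gene's end, of 1163 bp and ranked 179, had hPFE H3K27me3 folds of 6.13 and 3.08 and neither of the other marks in any library.

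The hAFE list had an H3K27me3 peak at 284 of the new regions (37.1%, 95% interval 33.6 to 40.6), against 47.7% of all merged regions and 94.4% of those marked throughout. Regions in 1 hPFE list only, chosen alike at hESC and hDE, had it more often, at 49.9%. Those in hESC and hPFE but not hDE had it in 60.1%. The hAFE list was the shortest, and with 1 library the value has no replicate check. Regions with the hAFE peak were wider, at a median of 928 bp against 642 bp, and 20.4% of them had H3K27ac before, against 10.8% of those without. An hAFE peak can itself widen a merged region, and with the hAFE list kept out of the merging the share was 33.6%. Without hPFE replicate 1 in the rule it was 58.4%. By width, 19.9% of regions below 750 bp and 90.9% of those of 2000 bp or more had one. H3K27ac in either hAFE library was found at 3 of the 284 (1.06%) and at 7 of the 482 without the peak (1.45%). Without the width minimum the share was 12.1% of 3204 regions, above the 7.84% of all merged regions, and with a minimum of 1000 bp 69.1%, above 64.2%.

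H3K4me2 was less common at the new regions than over all merged regions, but more common than at regions in 1 hPFE list only. All merged regions include those with H3K27me3 at hESC or hDE, which the rule left out. Shares over all merged regions therefore do not compare like with like. In both libraries of hESC or of hDE H3K4me2 marked 221 new regions (28.9%, 95% interval 25.7 to 32.2), against 50.2% of all merged regions, 87.9% of those marked throughout and 17.6% of those in 1 hPFE list only. By stage it marked 213 (27.8%) in hESC, 158 (20.6%) in hDE, 144 (18.8%) in the hAFE library and 140 (18.3%) in the hPFE library. The shares over all merged regions were 48.8, 37.3, 39.4 and 37.4%. Without the width minimum the early share was 13.2%, against 7.65% of all merged regions, so the order against all merged regions turned. Of the 213 regions with hESC H3K4me2, 128 (60.1%) also had it in hPFE and 85 (39.9%) did not, against 28.1% of all merged regions with it that did not. In the hAFE library 81 of the 213 (38%) had none, against 25.1%. In both libraries of both early stages it marked 150 new regions (19.6%, against 35.9%). Among the 110 with earlier H3K27ac, 63 (57.3%) had an hPFE H3K4me2 peak while 2 (1.82%) had hPFE H3K27ac.

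The largest class, 464 regions (60.6%), had neither H3K27ac nor H3K4me2 in any hESC or hDE library. The share was lower over all merged regions, at 40.6%. It was higher, at 75.1%, in regions in 1 hPFE list only, chosen alike at hESC and hDE. The 464 regions were narrower, at a median of 671 bp against 1000 bp for those with earlier H3K27ac, and had lower hPFE folds, with medians of 3.20 and 3.35 against 3.84 and 4.55. Only 5 of them (1.08%) lay within 1 kb of a protein-coding gene start, against 32 (29.1%) of those with H3K27ac before. Of the 123 with H3K4me2, but not H3K27ac, in both libraries of hESC or of hDE, 29 (23.6%) did. An hAFE H3K27me3 peak was found at 28.4, 52.7 and 55.3% of the same 3 classes.

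Most new regions lay away from gene starts: 70 (9.14%) were within 1 kb of the start of a protein-coding gene whose strand is known, against 21.0% of all merged regions and 40.6% of those marked throughout. Inside a gene but farther from its ends lay 286 (37.3%, against 28.7%), and 354 (46.2%, against 39.3%) were outside protein-coding genes. Regions in 1 hPFE list only, chosen alike at hESC and hDE, had 6.23% at such starts, 28.9% inside and 60.6% outside genes. Lying away from gene starts was therefore not particular to the new regions. As merged here, most new regions were also near older H3K27me3: the median distance to a peak in any hESC or hDE list was 1400 bp, and 545 (71.1%) lay within 5 kb, against 62.9% of the regions found in 1 hPFE list only. When the older peak had to be in both lists of a stage, 42.4% lay within 5 kb. With peaks up to 500 bp apart joined the share was also 42.4%, and up to 1000 bp apart 28.0%, so that most no longer lay that near.

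Joined at 10 kb, the regions formed 555 groups, and 321 regions (41.9%) stood in groups of 2 or more. The largest held 12 regions over 24443 bp of chromosome 7 between genes, 14549 bp from CDHR3, with hPFE folds of 2.67 to 4.92 and 2.89 to 5.52 and no hAFE peak. Another 11 lay in CACNG2, a calcium-channel gamma-family gene, all with an hAFE peak, and 11 in ESRRG, 9 of them with one. On chromosome 15, 19 regions in 5 such groups lay over 157516 bp with RPLP1 as the nearest protein-coding gene, 64659 bp away or more. That stretch overlaps the annotated genes DRAIC and PCAT29, which are long noncoding RNAs. It held the 2 widest new regions, of 9757 and 9362 bp, and 17 of the 19 had an hAFE peak. None of the regions near CDHR3, in the groups at CACNG2 and ESRRG or on this stretch had H3K27ac before in both libraries of a stage. In 1 group at NTN1, 5 regions covered 15034 bp, 3 of them with H3K27ac in both hDE libraries and all 5 with an hAFE peak.

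Few genes had a new region at all. Within 1 kb of an annotated end they met 114 of 19974 protein-coding genes (0.571%), and 299 (1.50%) when regions inside genes were counted. Of 572 listed genes in 21 lists, 9 (1.57%) had a new region at an end and 15 (2.62%) at an end or inside. Counts of this size cannot rank the lists, and at the shares of all genes a list of this length would often have none. None of 45 anterior foregut and pharyngeal genes, 26 thymus, parathyroid and thyroid genes, 39 HOX genes, 24 retinoic acid genes or 24 housekeeping genes had one.

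Of 26 pluripotency genes 2 had one. L1TD1, an RNA-binding protein of stem cells, had H3K27ac folds of 10.7 and 8.75 in hESC and 16.3 and 22 in hDE, none later, and H3K27me3 folds of 6.04 in hAFE and 3.73 and 3.78 in hPFE. USP44, a deubiquitinase gene, had 2 regions, with H3K27ac in both hESC libraries and hPFE H3K27me3 folds of 2.64 to 3.11. Other lists had similar counts, with 1 of 25 Nodal and TGF-beta genes, 2 of 38 FGF genes and 2 of 31 definitive endoderm genes at an end or inside. FOXH1, which binds DNA with SMADs in Nodal signalling, had 3 regions, some within 1 kb of the neighbouring KIFC2 as well, and the best-ranked had H3K27ac folds of 10.7 and 13.3 in hDE and H3K27me3 folds of 5.12 and 4.48 in hPFE. FOXA3, an endodermal forkhead factor, had 2 regions, and the better ranked had hDE H3K27ac folds of 5.73 and 9.81 and hPFE H3K27me3 folds of 5.37 and 4.21. The better ranked of 2 regions at FGF14, an intracellular modulator of sodium channels, had H3K4me2 in all 4 early libraries, no H3K27ac, and hPFE H3K27me3 folds of 4.91 and 5.27.

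FGF4 and ALX1 had hPFE H3K27me3 folds of 3.45 and 3.23 and of 2.87 and 3.24, with no H3K27ac in both libraries of hESC or hDE. The ALX1 region also had an H3K27ac peak in hPFE replicate 2, with a fold of 3.73, and none in hPFE replicate 1. Regions inside GATA4, HEY2, PAX2, PAX5, SFRP1 and WNT8B lay more than 1 kb from the gene ends, and the best-ranked of them, in PAX5, stood at rank 86. FGF4, ALX1, SOX21, GATA4, HEY2, SFRP1, USP44 and WNT8B had no new region when hPFE peaks needed a −log10 p of 5 or more, and L1TD1, FOXA3 and PAX2 had none when a width of 1000 bp was needed. Of 23 gene families counted by symbol, 5 had no gene with a new region at an end or inside: protocadherin, keratin, ephrin and Eph receptor, claudin and integrin genes. Shares rest on few genes in the small families, with 1 of 6 GATA genes (16.7%), 2 of 12 laminin genes (16.7%), 3 of 23 cadherin genes (13.0%) and 2 of 19 T-box genes (10.5%). Among larger families, 8 of 40 calcium and sodium channel genes (20.0%, against 1.50% of all protein-coding genes) had a new region at an end or inside. All 8 are calcium-channel genes, none is a sodium channel gene, and 2 of them lie close together on chromosome 19. New regions were also found at 5 of 51 glutamate and GABA receptor genes (9.80%), 6 of 96 potassium channel genes (6.25%) and 2 of 538 zinc-finger genes named ZNF or ZSCAN (0.372%). Long genes have more room for a region inside, and gene length was not tested. At gene ends alone the last 4 families had 1, 3, 3 and 1 genes.

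Promoter sequence was read from the RefSeq table, which has a promoter for 15812 of the protein-coding genes, over 250 bases before to 50 after the start. New regions overlapped 27 of these windows. Their median ratio of observed to expected CpG was 0.720, against 0.763 over all 15812 and 0.791 over the 1073 overlapped by regions marked throughout. The ratio was 0.6 or more in 21 of the 27 (77.8%), against 65.8% and 82.2%. Short motifs were searched on both strands. The forkhead core TGTTTAC was in 0 of the 27 (2.62% of all promoters), the T-box core TCACACC in 0 (3.26%), the GATA core AGATAA in 4 (14.8%, against 7.55%), the SOX core ACAAT in 3 (11.1%, against 21.0%) and the SMAD core CAGAC in 12 (44.4%, against 44.1%). A match in 27 windows is a description of these letters and not a binding site.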

How the data were processed

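The peak lists of 21 libraries were used, and the 4 input samples entered only as the authors' controls. The deposited file names show that each library had its own peak calls with its stage's input as control, made by the authors from duplicate-free alignments with a p-value limit of 0.01 and at most 500 K peaks. Coordinates are hg38 (submitters' processing notes). For the aligner and peak caller, no name is given in the sources used here. Each deposited peak has an integer score, not used, and 3 values from the authors: fold enrichment, a ratio over input, −log10 of its p, and −log10 of its q. The fold describes a peak and −log10 p ranks it within its own list, and no value was compared between lists.

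Overlapping or touching peaks were merged (Python 3.11.15, numpy 2.4.6, pandas 2.3.3), and a region carried a mark at a stage when every library of the stage had 1 bp or more of a peak in it. Genes came from RefSeq GRCh38.p14, with windows of 1 kb around both annotated ends, and starts from its promoter table. The members and gene lists were chosen with earlier results of these data known. Named genes are those of the lists with a region at or in them, the 20 best ranked with a region at an end, the genes of the 10 best-ranked regions with H3K27ac in both hDE libraries and of the 10 with it in both hESC libraries, and of the 10 widest, besides the 3 regions on each side of the width limit. PRKD1, XKR4, ESRRG, CACNG2 and CDHR3 were named after their values were seen, and some genes are not reported here. No test was made, because the regions were chosen by these values. Intervals are exact (Clopper-Pearson, 95%, scipy 1.17.1) and cover counting error only. Whether replicates are separate cultures is not in the labels. Merging and selection were tested on simulated data.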

Additional observations from a re-analysis of the deposited data

How the results depend on the processing

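The number of new regions was 2079 and 2801 with peaks up to 500 and 1000 bp apart joined, 188 with a 1000 bp minimum width, 3204 with none, 242 when hPFE peaks needed a −log10 p of at least 5, 284 when they needed a −log10 q of at least 2, and 495 with lists of equal length. In the same order of 7 settings, the share with earlier H3K27ac was 5.58, 4.57, 29.3, 6.15, 26.4, 25.7 and 19.6%, the share with earlier H3K4me2 10.6, 7.64, 49.5, 13.2, 46.3, 45.8 and 42.4%, and the share with an hAFE peak 11.8, 7.96, 69.1, 12.1, 50.8, 47.9 and 49.9% (33.6% with hAFE overlaid after merging). Over all merged regions, the H3K27ac share was 7.77, 7.62, 10.8 and 1.91% under the first 4 and 8.72% with equal lists. Regions within 5 kb of older H3K27me3 made up 42.4% and 28.0% with joining, 63.8% and 64.3% with the other widths, 61.4% with equal lists and 42.4% with older peaks in both lists. Genes at ends numbered 53 at 1000 bp, 210 with no minimum, 63 and 64 with the stricter hPFE peaks, 29 with the end overlapped, 249 within 5 kb and 266 anywhere in the gene. The share of hDE-acetylated regions without hPFE H3K27ac was 89.5% when joined at 1000 bp. Leaving out 1 library at a time gave 644 to 936 regions, 13.3 to 19.3% with H3K27ac, 27.7 to 36.3% with H3K4me2, 36.9 to 58.4% with an hAFE peak, 93.8 to 100% without hPFE H3K27ac, 88 to 150 genes and 65.0 to 71.8% near older H3K27me3. The hAFE share was 58.4% without hPFE replicate 1. Another 2 alternatives were chosen after seeing the data: the libraries named millipore gave 35.4% with H3K4me2, 100% without hPFE H3K27ac and 61.4% near older H3K27me3, and the others gave 18.6% with H3K27ac, 37.1% with H3K4me2 and 59.7% with an hAFE peak. The cause of these moves was not tested. Peak lists without read depth limit every absence. No paired analysis was possible because these results come from no test.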
